A study of Mus musculus with 9 samples.

Results

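The genes described here are 39 genes of the presynaptic vesicle release machinery, chosen by symbol from the 24411 genes listed for each mouse: 7 genes of SNARE proteins and their disassembly, 9 synaptotagmins and other calcium sensors with C2 domains, 3 complexins, 6 synapsins, Rab3 proteins and their effector, 7 vesicle membrane proteins and 7 active zone proteins. All 39 passed the filter on low values, which kept 14867 genes. They were measured by RNA-Seq of the hippocampus in 9 male C57BL/6J mice, labelled wild type and 10 weeks old, in 3 groups of 3 mice. Every mouse carried an AAV9 vector, delivered to CA1 of each hemisphere, whose Egfp reporter held CTG repeats in its 3′-UTR. CUG10 mice received 10 repeats with vehicle, CUG300 mice received 300 repeats with vehicle, and CWG-cPIP–treated CUG300 mice received 300 repeats mixed with CWG-cPIP at 83 μg/kg, a cyclic pyrrole-imidazole polyamide that binds CAG/CTG repeat DNA. Tissue was taken on day 10. The repeats therefore sat in a viral reporter and not in a gene of the mouse, and the promoter that drove it is not given in the sources used here. The vector was placed in CA1 while whole hippocampus was sequenced, so cells outside CA1 are part of each sample.

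Transmitter is released when a synaptic vesicle fuses with the membrane of the nerve terminal. The vesicle SNARE (synaptobrevin, encoded by Vamp genes) zips together with syntaxin and SNAP-25 of the terminal membrane, complexin holds the assembled complex ready, and synaptotagmin triggers fusion when calcium enters. Active zone proteins such as RIM, Munc13, Bassoon and Piccolo dock and prime vesicles beside calcium channels, whereas synapsins and Rab3 proteins keep the reserve of vesicles and bring it to the membrane. In the hippocampus these genes are expressed mainly by neurons, and many of the transcripts are made in pyramidal cells of CA1 and CA3 and granule cells of the dentate gyrus. In bulk tissue, fewer cells of a type and less RNA per cell cannot be told apart.

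Promoter windows (250 bases before to 50 after the start site) were found for 28 of the 39 genes in RefSeq on GRCm38.p6. Stretches are shown for the members with the smallest adjusted p-values that had 1 window, Stx1a and Syngr1, because these genes moved in the comparisons that follow, and CG pairs are in capitals.
Stx1a, 250 bases before the start, chr5:135023232-135023481, plus strand: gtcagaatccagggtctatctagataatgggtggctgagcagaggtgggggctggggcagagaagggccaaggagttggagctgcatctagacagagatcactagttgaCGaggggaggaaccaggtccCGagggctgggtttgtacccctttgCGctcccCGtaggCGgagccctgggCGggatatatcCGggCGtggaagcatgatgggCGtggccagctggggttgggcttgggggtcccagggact
Syngr1, 250 bases before the start, chr15:80091084-80091333, plus strand: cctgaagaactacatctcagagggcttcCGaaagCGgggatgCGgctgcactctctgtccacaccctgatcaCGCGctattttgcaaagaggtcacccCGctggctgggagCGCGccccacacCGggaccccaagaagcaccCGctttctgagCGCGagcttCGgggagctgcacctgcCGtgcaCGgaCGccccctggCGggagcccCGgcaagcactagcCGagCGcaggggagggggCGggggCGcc
The Stx1a stretch held 9 CG pairs and 62.0% G or C, and the Syngr1 stretch 22 CG pairs and 68.4%, whereas the median over 27025 genes was 6 CG pairs in the same 250 bases. Over whole windows the middle values of the share of G and C among the 28 members were 62.7% and 63.7%, and the median for all genes was 52.8%.

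Neuronal genes often carry the RE1 element, to which the repressor REST binds in cells other than neurons, or the CRE element, to which CREB binds. These were searched on both strands, together with the repeat that CWG-cPIP binds, and matches are in capitals.
Bsn, CAGCAGCAG across the start site, chr9:108190374-108190400, minus strand: gcgcatgcgCAGCAGCAGgcggctgtg
Unc13a, both RE1 half-sites on the opposite strand, chr8:71671724-71671753, minus strand: ggcGCTGTCCgcgcccccGGTGCTGAAgcg
Syn1, RE1 left half-site and CRE in the 250 bases before the start, chrX:20920919-20921168, minus strand: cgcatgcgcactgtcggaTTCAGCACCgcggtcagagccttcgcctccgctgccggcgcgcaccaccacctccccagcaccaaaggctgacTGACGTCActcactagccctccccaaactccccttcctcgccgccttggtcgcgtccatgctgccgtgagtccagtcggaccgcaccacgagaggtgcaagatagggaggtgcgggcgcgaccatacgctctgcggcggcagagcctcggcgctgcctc
The run CAGCAGCAG (or CTGCTGCTG) occurred in 1 of 28 members' windows (3.57%), that of Bsn, against 2.11% of all genes. The left RE1 half-site TTCAGCACC (or GGTGCTGAA) occurred in Syn1 and Unc13a, 2 of 28 (7.14%), against 0.433% of all genes. The right half-site GGACAGC (or GCTGTCC) occurred in Rph3a and Unc13a, 2 of 28 (7.14%), against 7.59%, and in Unc13a 8 bases lay between both half-sites. The CRE TGACGTCA occurred in Syn1 alone among the members with a window (3.57%), against 2.03% of all genes. These matches describe letters in the windows and were not tested.

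The members covered a wide range of levels. Values are regularized logarithm (rlog) values, a log2 scale of normalized counts on which 1 unit is a doubling, and for levels between genes the log2 of exon length in kilobases was subtracted. Per exon length, CUG10 mice had the highest level for Snap25, a SNARE protein of the terminal membrane, at 13.83, followed by Syp at 13.43, which encodes the vesicle protein synaptophysin. Slc17a7, the vesicular glutamate transporter of pyramidal cells, followed at 12.36. Vamp2, Rab3a, Cplx2, Cplx1 and Syt1 came next, at 12.13 to 11.90, and the mice of neighbouring genes in this order overlapped. The lowest levels per exon length were those of Sv2c at 2.45, Syt2 at 4.52 and Unc13c at 4.93, and the 3 mice of each of these did not overlap with those of the next.

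**Figure D1:**
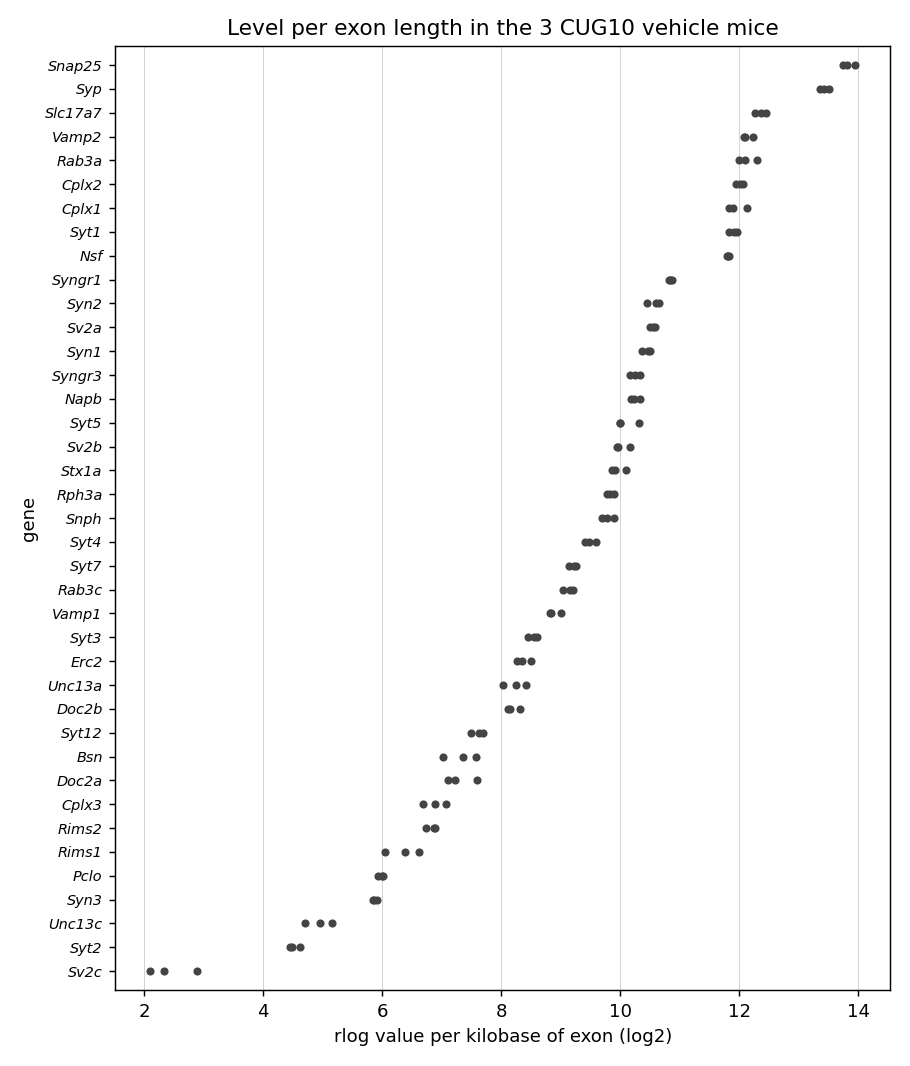
Levels of the 39 genes in CUG10 mice, as rlog values minus the log2 of exon length in kilobases (horizontal axis), with 1 point for each of the 3 mice. Snap25 and Syp stand above the other genes, and Sv2c stands lowest at a mean of 2.45.

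In vehicle-treated CUG300 mice, all 39 members had lower means than in CUG10 mice, and 9 were called lower and 0 higher: Stx1a, Sv2b, Syngr1, Syt5, Cplx1, Rims2, Sv2a, Syt1 and Syt3 (limma over all genes tested, adjusted p under 0.05). Over all genes tested, 3.34% were called lower and 7.37% higher. The median difference of the members was −0.50 on the log2 scale, against −0.01 for all genes tested. In 25 of 39 members every CUG300 mouse lay below every CUG10 mouse, whereas this held for 16.7% of all genes, and in 0 members did every CUG300 mouse lie above, against 18.2% of all genes. The lowered members came from 5 of the 6 roles, the exception being synapsins and Rab3 proteins, and none of their differences reached 1 on the log2 scale. The count of 9 became 0 without any 1 of the 3 CUG10 mice and 0 without replicate 3 of the vehicle-treated CUG300 mice, and in each of these fits 0 of all genes tested were called lower. It became 24 without replicate 2 of the vehicle-treated CUG300 mice, when 7.84% of all genes were called lower, and 3 without replicate 1 of the CWG-cPIP–treated mice, when 0.329% were. It also became 0 with the choroid plexus list as a covariate, which left 1 of all 14867 genes called lower and 0 higher, while all 39 members' differences stayed negative, at a median of −0.47.

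**Figure D2:**
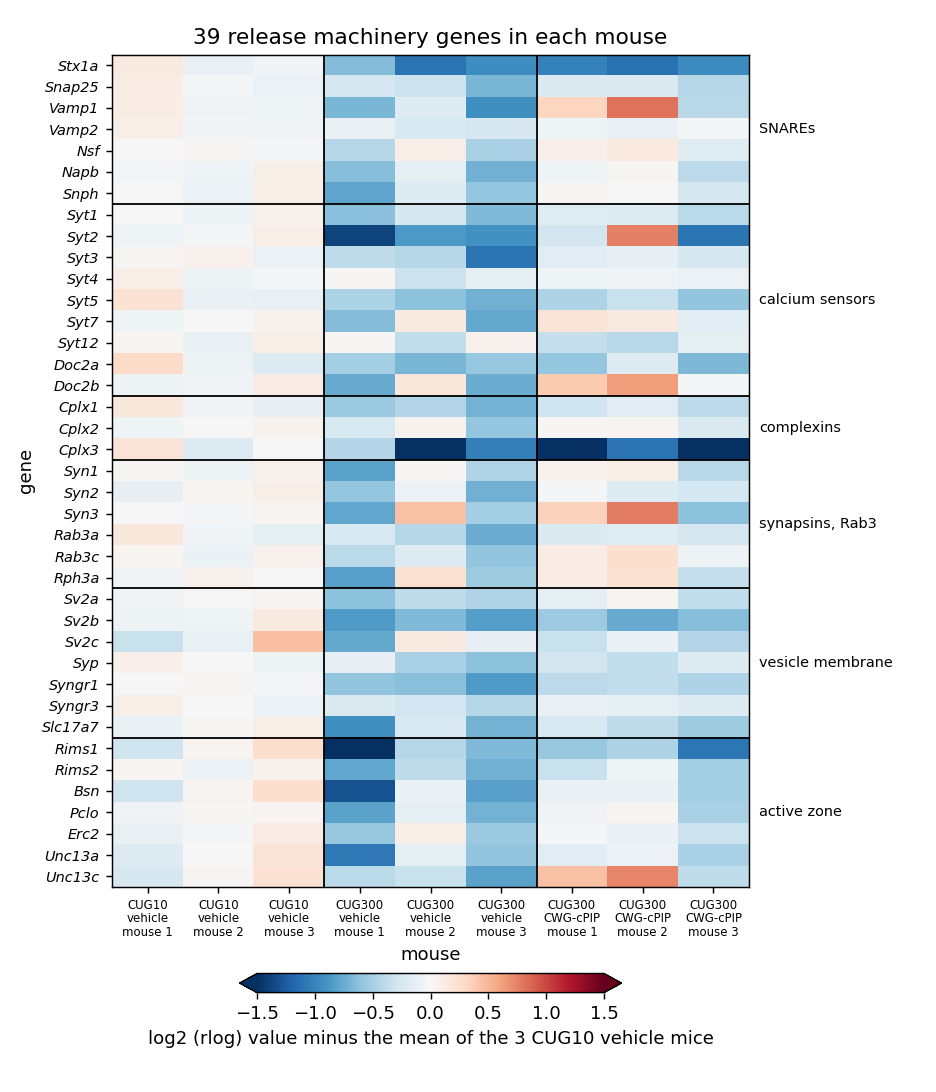
Difference of each member (rows, by role) from its mean in the 3 CUG10 mice, on the log2 scale, in each of the 9 mice (columns), with blue for lower and red for higher values and colours ending at 1.5 in both directions. CUG300 replicates 1 and 3 given vehicle are lower in nearly all rows (37 and 38 of 39 below the CUG10 mean), and the CWG-cPIP–treated mice differ among themselves.

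The mice of a group did not move alike. Against the CUG10 mean, the median member difference was −0.61, −0.24 and −0.69 in replicates 1 to 3 of the vehicle-treated CUG300 mice, and −0.14, −0.10 and −0.39 in those of the CWG-cPIP–treated mice. Replicate 2 was the highest of the vehicle-treated CUG300 mice in 26 of 39 members, and replicate 3 was the lowest of the CWG-cPIP–treated mice in 34 of 39. The median SD over the 39 members was 0.09 in CUG10 mice, 0.30 in vehicle-treated CUG300 mice and 0.16 in CWG-cPIP–treated mice, against 0.10, 0.22 and 0.14 over all genes tested.

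Marker lists of other cells and regions differed as well, and their part in these results was not tested. General neuron markers had a median difference of −0.27 in vehicle-treated CUG300 mice, with 4 of 16 lower (Nefl, Nefh, Eno2 and Ina), and the mean log2 value of the list was 11.94 to 12.14 in CUG10 mice, 11.60 to 11.80 in vehicle-treated CUG300 mice and 11.82 to 11.95 with CWG-cPIP. Rbfox3, which marks neuronal nuclei, differed by −0.24 (limma adjusted p = 0.157) and Map2 by −0.04 (limma adjusted p = 0.891), and both were present in every mouse. Of 6 CA1 markers, 3 were lower, among them Fibcd1 (−0.80, limma adjusted p = 0.0241), whereas Wfs1 stood at −0.02 (limma adjusted p = 0.935). Of 8 markers of infiltrating leukocytes, 6 were higher, with list means of 4.89 to 5.29 in CUG10 mice, 7.07 to 7.77 in vehicle-treated CUG300 mice and 5.49 to 7.55 with CWG-cPIP. Microglia markers were higher in 4 of 8, with list means of 9.65 to 10.09, 10.50 to 10.65 and 10.00 to 10.46. Cx3cr1 (0.17, limma adjusted p = 0.427) and P2ry12 (−0.34, limma adjusted p = 0.400) did not pass. The choroid plexus list, led by Ttr, ran from 6.19 to 8.97 in CUG10 mice and 8.15 to 9.26 in vehicle-treated CUG300 mice. With CWG-cPIP it ran from 6.27 to 6.44, and 0 of its 9 genes passed in any comparison. At an unadjusted limma p under 0.05, 8 of 9 were lower with CWG-cPIP than with vehicle, against 3.6% of all genes. The median of these differences over the list was −2.22. In CWG-cPIP–treated against CUG10 mice 4 of 9 were lower at that level, beside 5.31% of all genes. Markers of interneurons (median −0.40), oligodendrocytes (−0.59), dentate granule cells (−0.03), CA3 cells (−0.15) and endothelium (0.45) had 0 genes that passed in limma in vehicle-treated CUG300 mice. In that order, 3, 2, 0, 1 and 4 of their genes had an unadjusted limma p under 0.05. Astrocyte markers had 2 of 8 higher (Gfap and Aqp4) and 0 lower. Their median difference was −0.27, and 5 of the 8 means were lower. None of the genes in these lists stood at 0.

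When each mouse was centred on the mean of the 16 general neuron markers instead, 4 members were called lower, against 0.37% of all genes tested. In that fit 0 members were called higher, against 4250 of all 14867 genes. The median member difference was −0.19, while the median of all genes moved to 0.30. On that scale 7 members had a positive difference: Vamp2, Nsf, Syt4, Syt12, Cplx2, Syn3 and Sv2c. The other 32 differences were negative.

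Among the SNARE genes, Stx1a (chr5:135023482-135051100) had the smallest p-value. It encodes syntaxin 1A, the syntaxin of the nerve terminal membrane. The values of Stx1a were 11.22, 10.98 and 11.03 in the CUG10 group, 10.43, 9.97 and 10.15 in the vehicle-treated CUG300 group and 10.06, 9.96 and 10.13 in the CWG-cPIP–treated group. All CUG300 mice lay below all CUG10 mice. Stx1a fell by 0.89 in log2 units (limma adjusted p = 0.0207, SE 0.13), to 0.538 of the CUG10 level. With CWG-cPIP it differed from vehicle-treated CUG300 mice by −0.13 (limma adjusted p = 0.60), and from CUG10 mice by −1.03 (limma adjusted p = 0.0879), with no overlap between the CWG-cPIP–treated and CUG10 mice. Vamp1, a vesicle SNARE of fast-firing neurons, had the largest difference of the SNARE genes between CWG-cPIP and vehicle. The values of Vamp1 were 11.04, 10.88 and 10.86 in the CUG10 group, 10.24, 10.73 and 10.01 in the vehicle-treated CUG300 group and 11.25, 11.74 and 10.51 in the CWG-cPIP–treated group. Vehicle-treated CUG300 mice all lay below CUG10 mice, yet −0.60 (limma adjusted p = 0.195) did not pass, and with CWG-cPIP the difference from vehicle was 0.84 (limma adjusted p = 0.484), where 2 of the 3 CWG-cPIP–treated mice lay above all vehicle-treated CUG300 mice and replicate 3 lay within their range. Snap25, Vamp2, Nsf, Napb and Snph, which encode the SNARE of the terminal membrane, the major vesicle SNARE, the ATPase that takes SNARE complexes apart, its adaptor and syntaphilin, a protein that binds syntaxin, differed in vehicle-treated CUG300 mice by −0.52 (Snph) to −0.19 (Vamp2), and none passed.

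Of the 9 calcium sensors, Syt1, Syt3 and Syt5 passed. Syt1 (chr10:108497650-109010980) encodes the main sensor for fast release. The values of Syt1 were 14.18, 14.10 and 14.24 in the CUG10 group, 13.54, 13.93 and 13.52 in the vehicle-treated CUG300 group and 13.99, 13.98 and 13.77 in the CWG-cPIP–treated group. The groups given 10 and 300 repeats did not overlap, and replicate 2 of the CUG300 mice was the nearest to CUG10. Syt1 fell by 0.51 in log2 units (limma adjusted p = 0.0430, SE 0.13). Syt5 (chr7:4539765-4547541), a sensor found on vesicles and dense-core granules, had a similar pattern with a narrower spread in CUG300 mice. The values of Syt5 were 11.12, 10.81 and 10.80 in the CUG10 group, 10.43, 10.30 and 10.19 in the vehicle-treated CUG300 group and 10.44, 10.58 and 10.32 in the CWG-cPIP–treated group. Syt5 fell by 0.60 in log2 units (limma adjusted p = 0.0246, SE 0.12), and the CWG-cPIP–treated mice also lay below all CUG10 mice (−0.46, limma adjusted p = 0.184). Syt3 (chr7:44382773-44400030), a high-affinity sensor, varied most through replicate 3 of the vehicle-treated CUG300 mice. The values of Syt3 were 9.97, 10.02 and 9.87 in the CUG10 group, 9.57, 9.52 and 8.85 in the vehicle-treated CUG300 group and 9.78, 9.83 and 9.71 in the CWG-cPIP–treated group. Syt3 fell by 0.64 in log2 units (limma adjusted p = 0.0494, SE 0.17), just inside the threshold, and with CWG-cPIP all 3 mice lay above all vehicle-treated CUG300 mice (0.46, limma adjusted p = 0.484).

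Syt2, the fast sensor of inhibitory and brainstem terminals, had the largest difference of any calcium sensor and did not pass. The values of Syt2 were 7.31, 7.34 and 7.48 in the CUG10 group, 5.99, 6.52 and 6.47 in the vehicle-treated CUG300 group and 7.10, 8.13 and 6.28 in the CWG-cPIP–treated group. The vehicle-treated CUG300 mice lay below all CUG10 mice (−1.05, limma adjusted p = 0.107), and CWG-cPIP–treated replicate 2 was the highest of all 9 mice while replicate 3 lay among the vehicle-treated CUG300 mice (0.84, limma adjusted p = 0.484). Doc2a, a sensor of spontaneous and asynchronous release, lay below all CUG10 mice in every CUG300 mouse given vehicle. The values of Doc2a were 8.94, 8.57 and 8.45 in the CUG10 group, 8.15, 7.97 and 8.08 in the vehicle-treated CUG300 group and 8.07, 8.45 and 7.98 in the CWG-cPIP–treated group. Its difference was −0.59 (limma adjusted p = 0.0527), and that of CWG-cPIP–treated from CUG10 mice was −0.48 (limma adjusted p = 0.265), the largest among the sensors in that comparison. Syt4, Syt7, Syt12 and Doc2b did not pass, with differences of −0.44 (Doc2b) to −0.09 (Syt12). Syt12 and Syt4 had the smallest differences of all 39 members between CUG10 and vehicle-treated CUG300 mice.

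All 3 complexins had lower means, and Cplx1 (chr5:108518554-108550027), the complexin of fast synapses, passed. The values of Cplx1 were 13.26, 13.02 and 12.96 in the CUG10 group, 12.53, 12.64 and 12.37 in the vehicle-treated CUG300 group and 12.78, 12.92 and 12.69 in the CWG-cPIP–treated group. Its vehicle-treated CUG300 mice lay below all CUG10 mice, and CWG-cPIP–treated mice lay between both. Cplx1 fell by 0.57 in log2 units (limma adjusted p = 0.0260, SE 0.12), and the CWG-cPIP–treated mice stood 0.29 (limma adjusted p = 0.484) above vehicle. Cplx3, a complexin known from ribbon synapses of the retina, had the largest difference of all members, with the widest spread in vehicle-treated CUG300 mice. The values of Cplx3 were 8.63, 8.24 and 8.44 in the CUG10 group, 7.998, 6.23 and 7.41 in the vehicle-treated CUG300 group and 6.46, 7.33 and 6.38 in the CWG-cPIP–treated group. All CUG300 mice lay below all CUG10 mice, and the difference of −1.22 (limma adjusted p = 0.0889) did not pass. It was 1 of 4 members whose mean was lower with CWG-cPIP than with vehicle (−0.49, limma adjusted p = 0.566), and it differed from CUG10 mice by −1.71 (limma adjusted p = 0.163). Cplx2, the complexin of forebrain excitatory synapses, overlapped between the groups (−0.25, limma adjusted p = 0.309).

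None of the 6 synapsins and Rab3 genes passed, although every mean was lower. Rab3a, the GTPase of synaptic vesicles, had the largest difference among them. The values of Rab3a were 13.14, 12.93 and 12.84 in the CUG10 group, 12.74, 12.54 and 12.23 in the vehicle-treated CUG300 group and 12.75, 12.79 and 12.72 in the CWG-cPIP–treated group. The vehicle-treated CUG300 mice all lay below CUG10 mice (−0.47, limma adjusted p = 0.0607), and CWG-cPIP–treated mice lay below all CUG10 mice (−0.22, limma adjusted p = 0.543). Rab3c, a close relative of Rab3a, had the smallest unadjusted p with CWG-cPIP of all members. The values of Rab3c were 12.31, 12.19 and 12.35 in the CUG10 group, 11.88, 12.09 and 11.70 in the vehicle-treated CUG300 group and 12.39, 12.54 and 12.21 in the CWG-cPIP–treated group. CWG-cPIP–treated mice lay above all vehicle-treated CUG300 mice and reached into the range of the CUG10 mice (0.49, limma adjusted p = 0.484). Syn1, Syn2 and Syn3, which tether vesicles in the reserve pool, and Rph3a, an effector of Rab3, overlapped between CUG10 and CUG300 mice, with differences of −0.46 to −0.28. In Syn3 and Rph3a, replicate 2 of the vehicle-treated CUG300 mice lay above all CUG10 mice.

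The vesicle membrane genes held 3 of the 9 called members, Sv2b, Syngr1 and Sv2a. Sv2b (chr7:75114894-75309262), a transporter-like vesicle glycoprotein, had the smallest SD of the called members in vehicle-treated CUG300 mice, at 0.10. The values of Sv2b were 12.52, 12.53 and 12.73 in the CUG10 group, 11.74, 11.93 and 11.76 in the vehicle-treated CUG300 group and 12.04, 11.83 and 11.95 in the CWG-cPIP–treated group. The vehicle-treated CUG300 mice and CWG-cPIP–treated mice overlapped, and both lay below all CUG10 mice. Sv2b fell by 0.78 in log2 units (limma adjusted p = 0.0207, SE 0.10), with 0.13 (limma adjusted p = 0.534) for CWG-cPIP against vehicle and −0.65 (limma adjusted p = 0.0970) against CUG10 mice. Syngr1 (chr15:80091334-80119501), synaptogyrin 1, was the most even of the called members in CUG10 mice, with an SD of 0.02. The values of Syngr1 were 13.00, 13.02 and 12.98 in the CUG10 group, 12.41, 12.38 and 12.16 in the vehicle-treated CUG300 group and 12.61, 12.63 and 12.54 in the CWG-cPIP–treated group. The 3 groups did not overlap, and CWG-cPIP–treated mice lay between the others. Syngr1 fell by 0.68 in log2 units (limma adjusted p = 0.0207, SE 0.09), and its value with CWG-cPIP was 0.28 (limma adjusted p = 0.484) above vehicle. Sv2a (chr3:96181227-96195183), the binding site of the antiseizure drug levetiracetam, had the smallest difference of the called members. The values of Sv2a were 12.61, 12.67 and 12.70 in the CUG10 group, 12.04, 12.28 and 12.21 in the vehicle-treated CUG300 group and 12.52, 12.68 and 12.29 in the CWG-cPIP–treated group. Vehicle-treated CUG300 mice lay below all CUG10 and all CWG-cPIP–treated mice. Sv2a fell by 0.48 in log2 units (limma adjusted p = 0.0355, SE 0.12), and CWG-cPIP–treated mice stood 0.32 (limma adjusted p = 0.484) above vehicle. Syngr3 and Slc17a7 lay just outside the threshold, at −0.31 (limma adjusted p = 0.0534) and −0.62 (limma adjusted p = 0.0513), and Syp stood at −0.40 (limma adjusted p = 0.0900). Sv2c, the form of basal ganglia, overlapped in all groups (−0.25, limma adjusted p = 0.543).

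Among active zone genes, Rims2 (chr15:39198286-39684372), a RIM scaffold that tethers calcium channels, passed. The values of Rims2 were 9.83, 9.71 and 9.86 in the CUG10 group, 9.03, 9.42 and 9.08 in the vehicle-treated CUG300 group and 9.47, 9.74 and 9.29 in the CWG-cPIP–treated group. Vehicle-treated CUG300 mice lay below all CUG10 mice, and CWG-cPIP–treated replicate 2 reached the range of the CUG10 mice. Rims2 fell by 0.63 in log2 units (limma adjusted p = 0.0320, SE 0.14). Rims1, its close relative, had the larger difference with a wider spread and did not pass. The values of Rims1 were 8.83, 9.17 and 9.40 in the CUG10 group, 7.49, 8.70 and 8.47 in the vehicle-treated CUG300 group and 8.56, 8.67 and 8.05 in the CWG-cPIP–treated group. Replicate 1 of the vehicle-treated CUG300 mice was the lowest mouse (−0.91, limma adjusted p = 0.0875), and CWG-cPIP–treated mice also lay below all CUG10 mice (−0.71, limma adjusted p = 0.366). Unc13c, a Munc13 priming factor, had the largest difference with CWG-cPIP of the active zone genes. The values of Unc13c were 7.83, 8.09 and 8.29 in the CUG10 group, 7.67, 7.73 and 7.26 in the vehicle-treated CUG300 group and 8.51, 8.81 and 7.69 in the CWG-cPIP–treated group. Replicates 1 and 2 with CWG-cPIP were above all CUG10 mice and replicate 3 was not (0.78, limma adjusted p = 0.484). Bsn and Pclo, the giant scaffolds Bassoon and Piccolo, together with Erc2 and the priming factor Unc13a, did not pass, at −0.74 (Bsn) to −0.34 (Erc2). In Bsn, Erc2 and Unc13a, replicate 2 of the vehicle-treated CUG300 mice lay within the range of the CUG10 mice.

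**Figure D3:**
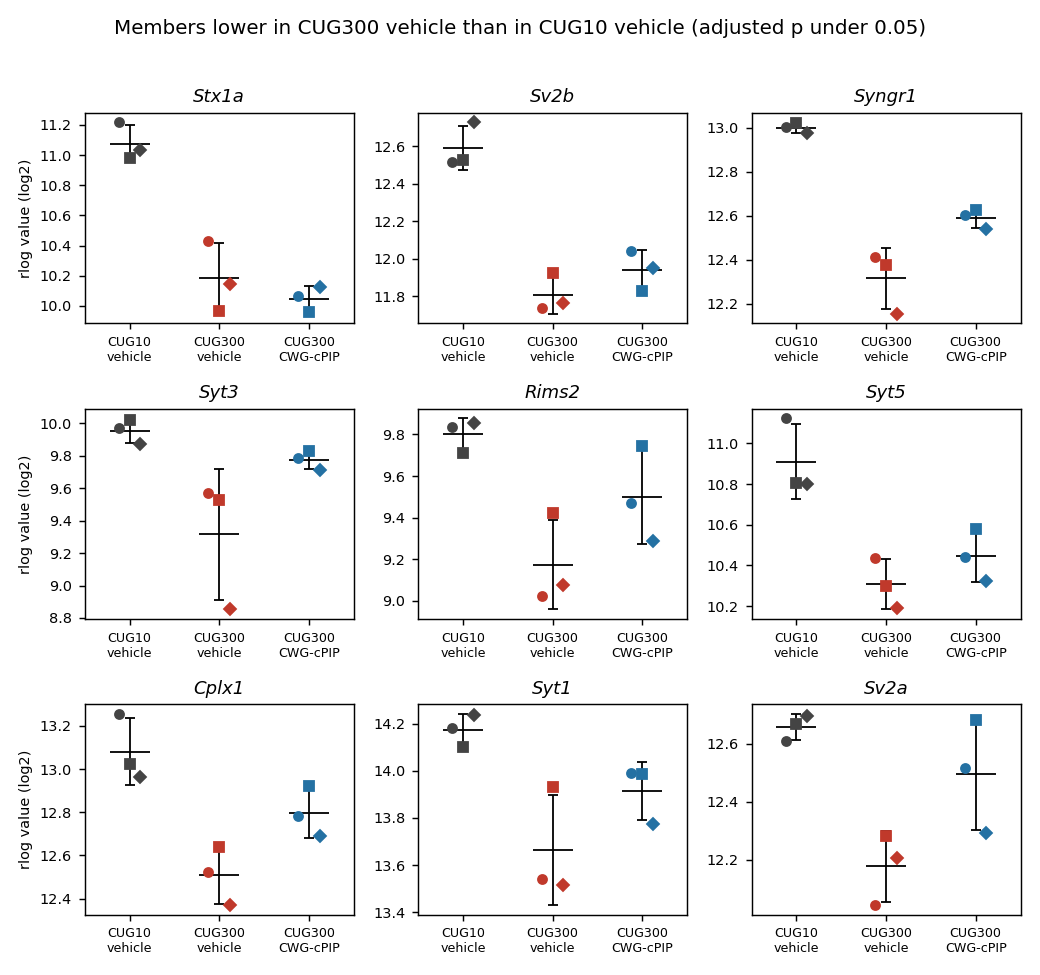
rlog values (log2, vertical axes) of the 9 members called lower in vehicle-treated CUG300 mice, with a symbol for each mouse (circle, square and diamond for replicates 1, 2 and 3) and black lines for mean and SD (n = 3). Vehicle-treated CUG300 mice lie below all CUG10 mice in each of the 9 panels, and all CWG-cPIP–treated mice lie above all vehicle-treated CUG300 mice in 4 panels (Syt3, Cplx1, Sv2a and Syngr1).

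Treatment with CWG-cPIP was compared with vehicle in CUG300 mice, and 0 of 39 members and 0% of all genes tested passed (limma, adjusted p under 0.05), the smallest adjusted p among the members being 0.484. Means were higher with CWG-cPIP in 35 of 39 members and lower in 4 (Stx1a, Syt12, Cplx3 and Sv2c), with a median difference of 0.29. At an unadjusted p under 0.05, 10 members were higher (Vamp1, Snph, Syt3, Doc2b, Cplx1, Rab3c, Sv2a, Syngr1, Rims2 and Unc13c) and 0 lower, against 5.23% of all genes higher and 3.6% lower. All CWG-cPIP–treated mice lay above all vehicle-treated CUG300 mice in 6 members (Syt3, Cplx1, Rab3c, Sv2a, Syngr1 and Syngr3), against 4.97% of all genes, and below in 0, against 3.5%. Vehicle-treated CUG300 mice take part in this comparison and in the one with CUG10 mice, so these differences are not independent of each other.

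**Figure D4:**
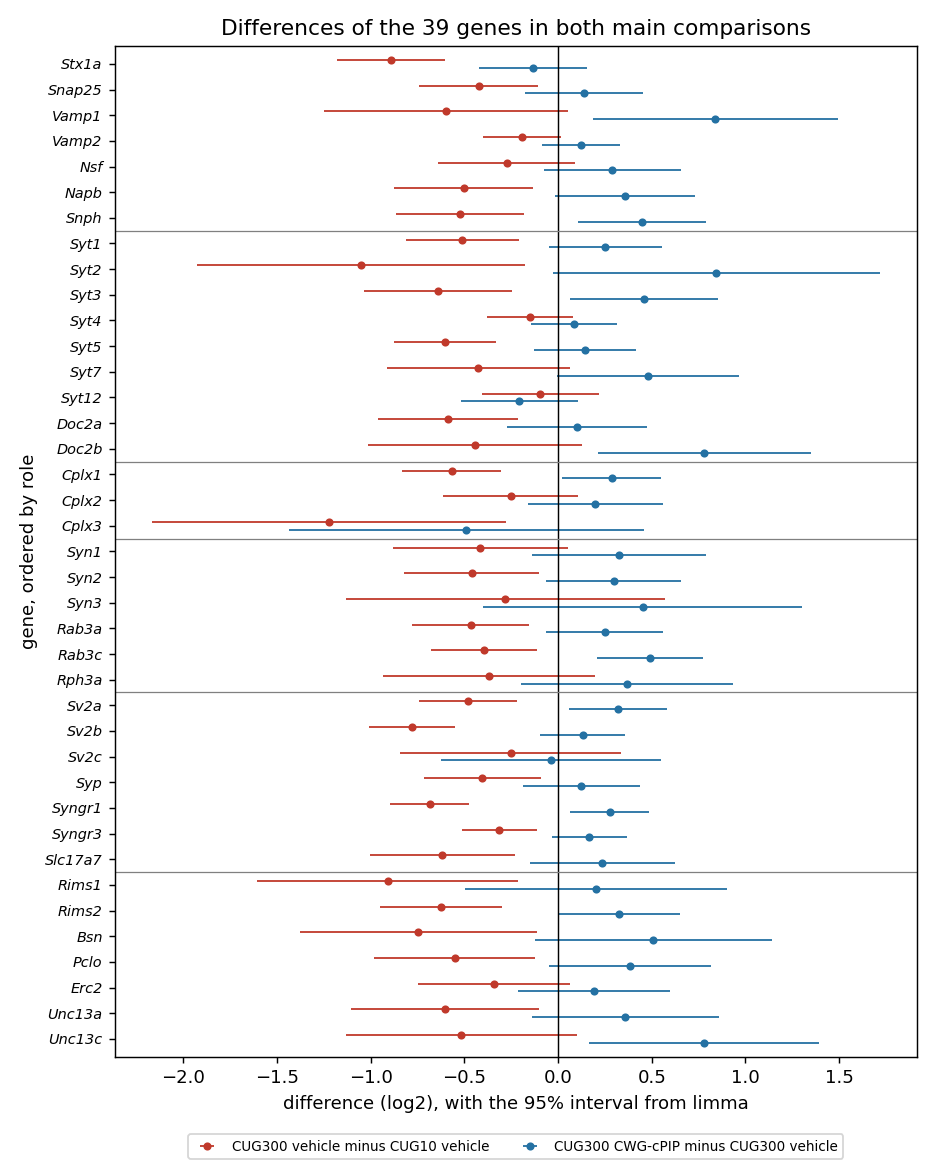
Differences on the log2 scale (horizontal axis) with their 95% intervals from limma for the 39 members (rows, by role), in red for CUG300 vehicle minus CUG10 vehicle and in blue for CUG300 CWG-cPIP minus CUG300 vehicle. All 39 red points lie below 0 and 35 of the 39 blue points above it.

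In CWG-cPIP–treated CUG300 mice against CUG10 mice, 0 of 39 members and 0% of all genes passed. Means were lower in 32 members and higher in 7, at a median difference of −0.18. At an unadjusted p under 0.05, 8 members were lower (Stx1a, Syt5, Doc2a, Cplx1, Cplx3, Sv2b, Syngr1 and Rims1) and 0 higher, against 5.31% and 8.12% of all genes. The groups did not overlap in 15 members, lower in all of them, against 12.4% of all genes lower and 13.4% higher. Stx1a passed without replicate 1 of the vehicle-treated CUG300 mice (limma adjusted p = 0.0205), whose spread enters the pooled variance, when 0.0202% of all genes were called lower. Without replicate 2 of the CWG-cPIP–treated mice 3 members passed as lower, Stx1a, Cplx3 and Sv2b, when 0.471% of all genes were called lower.

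Markers of regions next to the hippocampus differed in this group. The 10 markers of thalamus and diencephalon had list means of 5.23 to 5.57 in CUG10 mice and 5.38 to 6.14 in vehicle-treated CUG300 mice. With CWG-cPIP they were 6.31 to 6.70, a median difference of 0.75 from vehicle and 1.05 from CUG10 mice, and none passed. At an unadjusted limma p under 0.05, 8 of 10 were higher in both comparisons, against 5.23% and 8.12% of all genes. Tcf7l2, a thalamic transcription factor, differed from vehicle by 1.43 and from CUG10 mice by 2.36 (limma adjusted p = 0.484 and 0.0970). Slc17a6, the vesicular glutamate transporter of thalamic neurons and also in the vesicle filling list, had 9.21, 7.76 and 7.54 in CUG10 mice, 8.37, 9.45 and 7.44 in vehicle-treated CUG300 mice and 9.92, 10.46 and 9.52 with CWG-cPIP. Of the 39 members, 29 had the highest value of all 9 mice in a CUG10 mouse. In replicate 2 of the CWG-cPIP–treated mice 8 had it (Vamp1, Nsf, Syt2, Doc2b, Syn1, Syn3, Rab3c and Unc13c). The same counts over all genes are not given here. That mouse also had the highest Slc17a6, while the mean of the thalamus list was similar in replicates 1 and 2, at 6.69 and 6.70. Replicate 1 held the highest value of 1 member, Syt7. Dentate granule markers were at 8.58 to 8.71, 7.74 to 9.58 and 8.96 to 9.45, the widest range being that of the vehicle-treated CUG300 mice, where replicate 2 was the highest. The part of these tissues in the members' values was not tested.

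**Figure D5:**
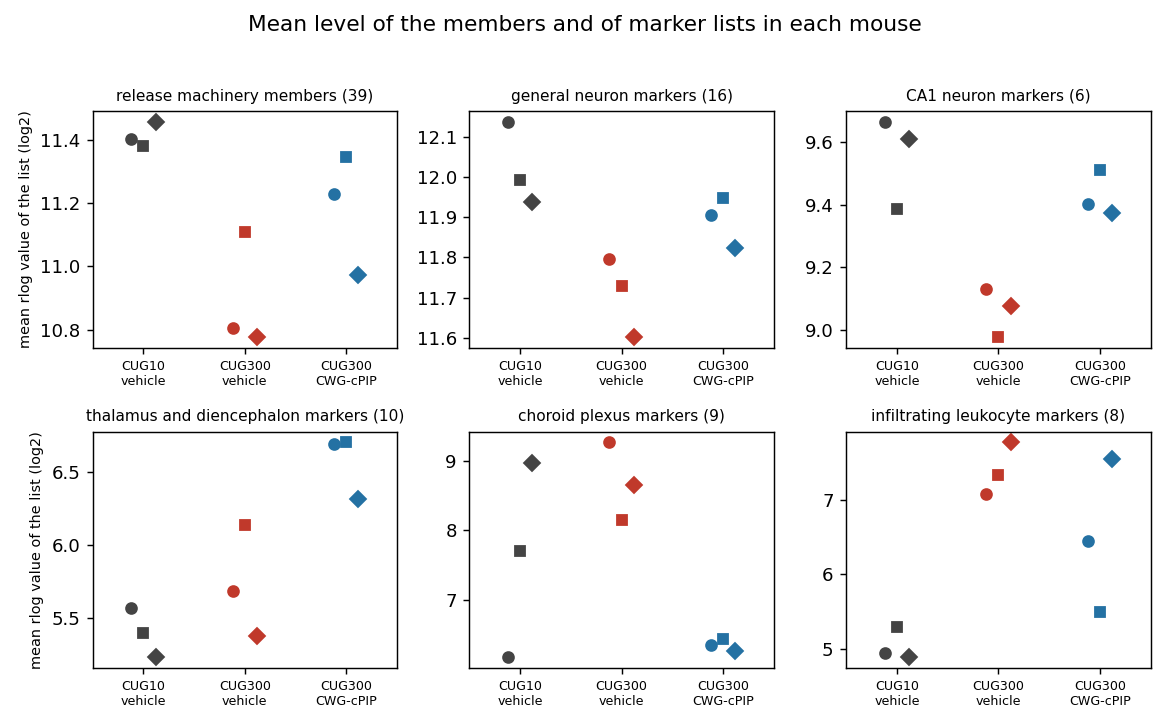
Mean log2 (rlog) value in each mouse (1 symbol each, circle, square and diamond for replicates 1, 2 and 3) of the 39 members and of 5 marker lists, with the number of genes in brackets. The members' group mean is lowest in vehicle-treated CUG300 mice (10.78 to 11.11), whose range overlaps that of CWG-cPIP–treated mice (10.97 to 11.35). Leukocyte markers are lowest in CUG10 mice, and choroid plexus markers vary within CUG10 mice from 6.19 to 8.97.

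Other genes of the release pathway were listed apart from the members, and 41 of 42 were tested. In vehicle-treated CUG300 mice 8 were lower and 1 higher. Among the lower genes, the active zone genes Ppfia3 and Rims4 fell by 0.48 and 0.80 (limma adjusted p = 0.0260 and 0.0481). The priming factors Unc13b and Cadps2, the synaptotagmin Syt13, the GTPase gene Rab3b and β-synuclein (Sncb) fell by 0.44 to 0.63. Syngr2, a synaptogyrin of tissues other than neurons, rose by 1.45 (limma adjusted p = 0.0260), from 7.83, 8.17 and 7.88 in CUG10 mice to 9.29, 9.13 and 9.80 in vehicle-treated CUG300 mice. The median difference of the list was −0.33, and 39 of 41 means were lower.

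Of 25 genes of vesicle endocytosis and recycling, 4 were lower (Dnm1, Eps15, Snap91 and Dnajc6) and 0 higher, with a median of −0.24. Dnm1, the dynamin that pinches vesicles off, fell by 0.69 (limma adjusted p = 0.0246). Of 16 tested genes of vesicle filling, 0 of which passed in limma and 6 of which were lower at an unadjusted p under 0.05, Slc6a17 and Slc32a1 had the largest differences in vehicle-treated CUG300 mice (−0.61 and −0.60, limma adjusted p = 0.0967 and 0.0892). In both treated comparisons 0 genes of these 3 lists passed, Slc17a6 and Slc32a1 having the largest differences from vehicle among the filling genes, at 1.54 and 0.51, and Slc17a6 and Slc17a8 from CUG10 mice, at 1.80 and −0.43.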

How the data were processed

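RNA-Seq values were taken for 9 hippocampi, 3 mice per group. Per the submitters' processing notes and the methods, paired 150-nt reads went through Trim Galore 0.6.6, STAR 2.7.9a (mm10) and RSEM 1.3.3. The log2 values deposited by the authors are DESeq2 1.36.0 rlog values, which shrink low counts toward each gene's mean. Neither the annotation nor strand use is given in the sources used here, and without counts the depth is unknown. Genes averaging log2(10) or more were tested with limma 3.58.1 in R 4.3.3, with a variance trend, pooled over all 9 mice, and Benjamini-Hochberg adjustment was made per comparison; the procedure was tested on simulated data. Separate animals are implied by the replicate labels, and p-values measure the spread between them. In 27 rows the symbol had become a date, 23 of them tested and not named. Exon lengths are the union of GENCODE vM21 basic exons, and coordinates and promoters come from RefSeq (GRCm38.p6). Members and lists were chosen with earlier results of these data known. Every member may be named, with values per mouse for those called and, in each role, those with the largest difference in each comparison. Of other genes, those called are named, or the 2 with the largest differences in each comparison for a list with none, and of marker lists the first 2 written. 1 gene that this rule names is not reported here. Other marker genes (Nefl, Nefh, Eno2, Ina) were named after their values were seen. Alternatives were scaling, filters, limma settings, a replicate block, a choroid plexus covariate, a stricter threshold and leaving out each mouse. Same-numbered mice of different groups gave r of −0.50 to 0.41, over 0.1 in 3 of 9 pairs, so the numbers were not taken to pair the mice.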

Additional observations from a re-analysis of the deposited data

How the results depend on the processing

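For vehicle-treated CUG300 mice against CUG10 mice, 9 members were called in the fit as reported, against 3.34% of all genes called lower. The count was 14 with median centring (6.11% of all genes called lower) and 4 when centred on the general neuron markers (0.37%, median member difference −0.19). It was 0 with a choroid plexus covariate (0.00673%) and 0 at an adjusted p under 0.01 (0%). The other settings (scaling to equal quantiles, testing every gene, a filter at log2(100), limma without a trend, robust limma, only the groups compared) gave 7 to 9, against 1.97% to 4.32% of all genes. Of these calls, 6 of 7 with equal quantiles and 7 of 9 with only the groups compared were shared with the fit as reported. With the replicate number as a block the count was 9, of which 8 were shared, against 2.72% of all genes. The block changed no other call count of the members. The replicate numbers do not pair the mice by the check in the methods, with 5 of 18 best matches to the own number. Leaving out single mice gave 0 to 24 called members, against 0% to 7.84% of all genes called lower, and medians of −0.65 to −0.40. For CWG-cPIP against vehicle, 0 members were called under every setting run, with medians of 0.19 to 0.43 when single mice were left out. Centred on the general neuron markers, that median was 0.10, against −0.19 for all genes, and 12 of 39 differences were negative. With the choroid plexus covariate the median was 0.22. For CWG-cPIP–treated against CUG10 mice the count was 1 with only the groups compared, against 0.0673% of all genes called lower. It was 0 to 3 with single mice left out (0% to 0.471% of all genes), with medians of −0.23 to −0.11. Centred on the general neuron markers, the median was −0.05, against 0.13 for all genes. The cause was not tested.

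Members not called in a comparison changed sign in it, 7, 10 and 11 of 39 in the 3 comparisons. Syt5 and Sv2b, called lower in vehicle-treated CUG300 mice, were among those that did so for CWG-cPIP against vehicle. Centred on neuron markers, vehicle-treated CUG300 against CUG10 mice gave 0.1219 for Vamp2, 0.0389 for Nsf, 0.1624 for Syt4, 0.2182 for Syt12, 0.0600 for Cplx2, 0.0307 for Syn3 and 0.0600 for Sv2c. In the same setting CWG-cPIP against vehicle gave −0.0453 for Snap25, −0.0614 for Vamp2, −0.0973 for Syt4, −0.0409 for Syt5, −0.0816 for Doc2a, −0.0514 for Sv2b, −0.0586 for Syp and −0.0157 for Syngr3, and CWG-cPIP against CUG10 gave 0.0605 for Vamp2, 0.0558 for Snph, 0.0651 for Syt4, 0.0761 for Cplx2, 0.0397 for Syn1 and 0.1254 for Rph3a. With the choroid plexus covariate, CWG-cPIP against vehicle gave −0.0434 for Syt5, −0.1872 for Doc2a and 0.2693 for Sv2c, and CWG-cPIP against CUG10 gave −0.0610 for Nsf and −0.0076 for Syt7. With median centring the latter comparison gave −0.0434 for Nsf and −0.0054 for Syt7. With quantile scaling it gave 0.0600 for Vamp2, 0.0612 for Cplx2 and 0.0375 for Rph3a, and CWG-cPIP against vehicle gave 0.0710 for Sv2c. With single mice left out, vehicle-treated CUG300 against CUG10 mice ranged from −0.4475 to 0.0050 for Sv2c and −0.1760 to 0.0439 for Syt12. CWG-cPIP against vehicle ranged from −0.0428 to 0.1942 for Doc2a, −0.1600 to 0.4430 for Rims1 and −0.2952 to 0.1573 for Sv2c. CWG-cPIP against CUG10 ranged from −0.1000 to 0.0292 for Cplx2, −0.0504 to 0.1126 for Nsf, −0.1212 to 0.1687 for Rph3a, −0.1212 to 0.0103 for Snph, −0.1820 to 0.0703 for Syn1, −0.1323 to 0.5597 for Syn3, −0.6862 to 0.2390 for Syt2, −0.0148 to 0.1626 for Syt7 and −0.0471 to 0.5697 for Vamp1.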
